A study of Mus musculus with 20 samples.

Results

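The genes described here encode the nuclear subunits of oxidative phosphorylation in the mouse, together with the complex I assembly factors that share the Nduf name. They were chosen by symbol alone: Nduf, Uqcr, Atp5 and Cox4 to Cox8 genes, plus Sdha, Sdhb, Sdhc and Sdhd, on probe sets that the platform annotation pairs with exactly 1 symbol. The rule found 89 genes among the 22180 with 1 symbol, and each gene was represented by its probe set of highest mean over the 20 arrays. Of these, 84 passed the filter on dim probe sets: 32 complex I subunits, 8 complex I assembly factors, 4 complex II, 7 complex III, 17 complex IV and 16 ATP synthase genes. Atp5j2, Cox7b2, Cox8c, Atp5c1-ps and Uqcrh-ps1 did not pass it, and 77 genes lay above the array median on every array. Complex IV here includes Ndufa4, Ndufa4l2 and Cox7a2l, which carry other family names or roles.

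Endothelial cells (CD31+CD45-Ter119-) were sorted from ears in a contact hypersensitivity model, in which the hapten 2,4-dinitrofluorobenzene (DNFB) sensitises the skin and then provokes inflammation. The 4 groups were NICD DNFB (4 arrays), NICD vehicle (4), control DNFB (6) and control vehicle (6). NICD mice express a constitutively active Notch1 intracellular domain in endothelium after Cre recombination (Pdgfb-CreERT2; R26-NICD by the genotype label, a CDH5-iCre by the growth protocol), and the labels describe control mice only as control. Per the labels, mice, with no genotype excepted, had 5 tamoxifen injections and DNFB sensitisation, a single challenge of the ear followed on day 5, and tissue was collected after 24 hours. The titles call the other ears vehicle-treated. The title of NICD vehicle replicate 4 was followed, although its description says DNFB. Whether replicates are separate animals is not said, so p-values measure the spread between these arrays.

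Replicate arrays of a group correlated at 0.944 to 0.981. All 12 pan-endothelial markers had group means above the array median in each group. Other cells were represented too: 8 of 11 pericyte and smooth muscle markers were lower after DNFB in NICD mice and 10 of 11 in control mice, and 6 and all 7 of 7 neutrophil markers were higher. Also higher in NICD and control mice were 3 and 4 of 4 platelet, 3 and 4 of 7 macrophage, 3 and 4 of 11 keratinocyte and 2 and 3 of 6 fibroblast markers, with 1 and 2 keratinocyte markers and 1 and 0 fibroblast markers lower, and the leukocyte marker Ptprc, which the sort selected against, rose by 1.56 and 1.21. Summed linear keratinocyte markers were 4290 to 6413 on NICD DNFB, 3418 to 5540 on NICD vehicle, 4200 to 11841 on control DNFB and 2981 to 5898 on control vehicle arrays, beside endothelial sums of 14148 to 16418, 16952 to 19199, 12178 to 15043 and 17714 to 20656. The part of these cells in the DNFB differences below was not tested. Among the pan-endothelial markers, 6 of 12 were lower and 1 higher in NICD mice, against 10 lower and 0 higher in control mice. Beside all these marker counts, 20% of all probe sets tested were higher and 18.1% lower in NICD mice. In control mice 23.7% were higher and 23.6% lower. The keratinocyte counts lay near these shares. In bulk cells, fewer cells of a type and less RNA per cell cannot be told apart. On 5 arrays (NICD DNFB 1, control DNFB 2 and 6, control vehicle 1 and 2) the mean of 12 skeletal muscle markers was 5.01 to 6.26, against 3.48 to 4.20 on the other 15.

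Oxidative phosphorylation couples the oxidation of NADH and succinate to ATP synthesis in the inner mitochondrial membrane. Complexes I and II pass electrons to ubiquinone, complex III passes them to cytochrome c and complex IV to oxygen, while complexes I, III and IV pump protons whose return drives ATP synthase. Most subunits are encoded in the nucleus and a few by mitochondrial DNA, and the factors NRF1, the ETS-family factor GABP, YY1 and ERRα are known regulators of the nuclear genes. Endothelial cells are known to draw much of their ATP from glycolysis.

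Promoters of 72 of the 89 genes were matched by gene to RefSeq promoter windows (build GRCm38.p6, 250 bases before and 50 after the start, so 300 in all). The NRF1 motif (GCGCA, any base, then GCGC) stood in 16 of the 72 (22.2%), against 6.60% of 17492 protein-coding genes, and the ETS motif CCGGAAG in 18 (25%), against 11.9%. The YY1 motif AAGATGG was found in 10 (13.9%, against 6.37%), the ERR motif TNAAGGTCA in 2 (2.78%, against 1.05%) and the hypoxia element core ACGTG in 18 (25%, against 20.7%). Both strands were searched. Of the 27 matched genes that were higher after DNFB in both genotypes, 6 held the NRF1 and 9 the ETS motif, against 10 and 9 of the other 43 that passed the filter. A match describes letters in the window and not a bound site. Printed below are 3 genes with large rises after DNFB, which show the NRF1, ETS, ERR and YY1 motifs, and Ndufa6, which fell, all 5′ to 3′ on the gene's strand with the motif matches on either strand in capitals. Ndufaf4 lies at chr4:24897833-24898132 (+), Sdhd at chr9:50603800-50604099 (-), Ndufaf8 at chr11:120098684-120098983 (+) and Ndufa6 at chr15:82354242-82354541 (-).
Ndufaf4: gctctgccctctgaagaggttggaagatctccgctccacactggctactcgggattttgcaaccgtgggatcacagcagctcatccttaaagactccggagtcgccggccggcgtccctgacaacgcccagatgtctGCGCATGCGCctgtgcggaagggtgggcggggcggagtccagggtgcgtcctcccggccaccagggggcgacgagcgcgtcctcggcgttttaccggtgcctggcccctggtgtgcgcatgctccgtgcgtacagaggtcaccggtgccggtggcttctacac
Sdhd: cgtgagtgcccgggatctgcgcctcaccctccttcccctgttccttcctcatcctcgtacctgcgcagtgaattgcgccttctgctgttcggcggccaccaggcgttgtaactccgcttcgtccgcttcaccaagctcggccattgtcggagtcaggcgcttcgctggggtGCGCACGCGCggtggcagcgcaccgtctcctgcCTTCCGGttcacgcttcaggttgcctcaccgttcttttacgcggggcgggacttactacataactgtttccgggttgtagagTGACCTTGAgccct
Ndufaf8: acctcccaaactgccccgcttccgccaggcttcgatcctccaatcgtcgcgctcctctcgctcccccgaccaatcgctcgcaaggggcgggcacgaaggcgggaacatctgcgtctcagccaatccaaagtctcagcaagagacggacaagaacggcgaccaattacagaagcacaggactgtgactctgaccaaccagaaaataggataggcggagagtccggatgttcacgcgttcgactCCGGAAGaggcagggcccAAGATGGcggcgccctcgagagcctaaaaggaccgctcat
Ndufa6: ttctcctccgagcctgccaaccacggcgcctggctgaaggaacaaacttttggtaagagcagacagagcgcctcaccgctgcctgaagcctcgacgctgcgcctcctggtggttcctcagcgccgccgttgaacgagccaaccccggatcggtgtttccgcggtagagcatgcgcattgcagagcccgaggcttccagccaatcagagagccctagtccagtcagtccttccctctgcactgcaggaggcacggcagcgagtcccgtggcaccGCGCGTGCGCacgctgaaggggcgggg
Both the Ndufaf4 and the Ndufa6 window hold 1 NRF1 match, although these genes moved in opposite directions after DNFB, as given below.

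The first question was how the respiratory genes responded to the hapten challenge within each genotype. In NICD mice 41 of the 84 genes were higher and 6 lower after DNFB, while 37 did not pass the threshold of adjusted p 0.05; of all 14886 probe sets tested, 20% were higher and 18.1% lower. In control mice 40 were higher, 10 lower and 34 did not pass, against 23.7% higher and 23.6% lower among all probe sets. The median log2 difference of the genes was 0.30 in NICD mice and 0.22 in control mice, beside 0.0067 and -0.0012 over all probe sets. These transcripts are bright, and brightness matters for that background: among the 2261 probe sets at or above the genes' median level, 37.2% were higher and 22.0% lower in NICD mice, and 37.6% and 28.4% in control mice.

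The comparisons in NICD and in control mice share no array. Both called 34 genes higher, which is 82.9% of the NICD list and 85% of the control list, where over all probe sets the shares were 81.6% and 68.9%. All 6 genes lower in NICD mice (Cox4i2, Ndufa4l2, Cox7a2l, Ndufaf3, Ndufa6 and Ndufa7) were also lower in control mice, where they made up 60% of the 10; over all probe sets these shares were 83.2% and 63.8%. No gene was called in opposite directions, and 74 of the 84 differences (88.1%) had the same sign, where 79.5% of all probe sets did.

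Averaged over the genes of a complex, ATP synthase stood at 8.17 ± 0.08 on NICD DNFB arrays and 7.84 ± 0.09 on NICD vehicle arrays (mean log2 value ± SD, n = 4 each), and at 8.17 ± 0.09 on control DNFB and 7.96 ± 0.03 on control vehicle arrays (n = 6 each). The lowest of the 6 control DNFB arrays, replicate 3, read 8.01 and still lay above the highest control vehicle array at 7.99. The mean of the assembly factors was 6.09 ± 0.04 against 5.54 ± 0.04 in NICD mice, and 6.09 ± 0.15 against 5.68 ± 0.06 in control mice, DNFB first. Complex IV differed least: 7.51 ± 0.06 on NICD DNFB arrays against 7.43 ± 0.08 on NICD vehicle arrays, and 7.70 ± 0.19 on control DNFB arrays against 7.71 ± 0.16 on control vehicle arrays. The highest control means of complex IV were on the 4 control arrays with high skeletal muscle markers. They were 7.84 and 7.96 on control vehicle 1 and 2, and 7.85 and 7.95 on control DNFB 2 and 6. The part of muscle transcripts in these means was not tested. In complex IV, 3 of 17 genes were lower in NICD mice and 4 in control mice, beside 6 higher in each. The lower counts were near the shares of all probe sets, 18.1% in NICD mice and 23.6% in control mice. The higher counts were near the shares among probe sets at or above the genes' median level, 37.2% and 37.6%. These shares also stand beside the counts per complex below.

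**Figure D1:**
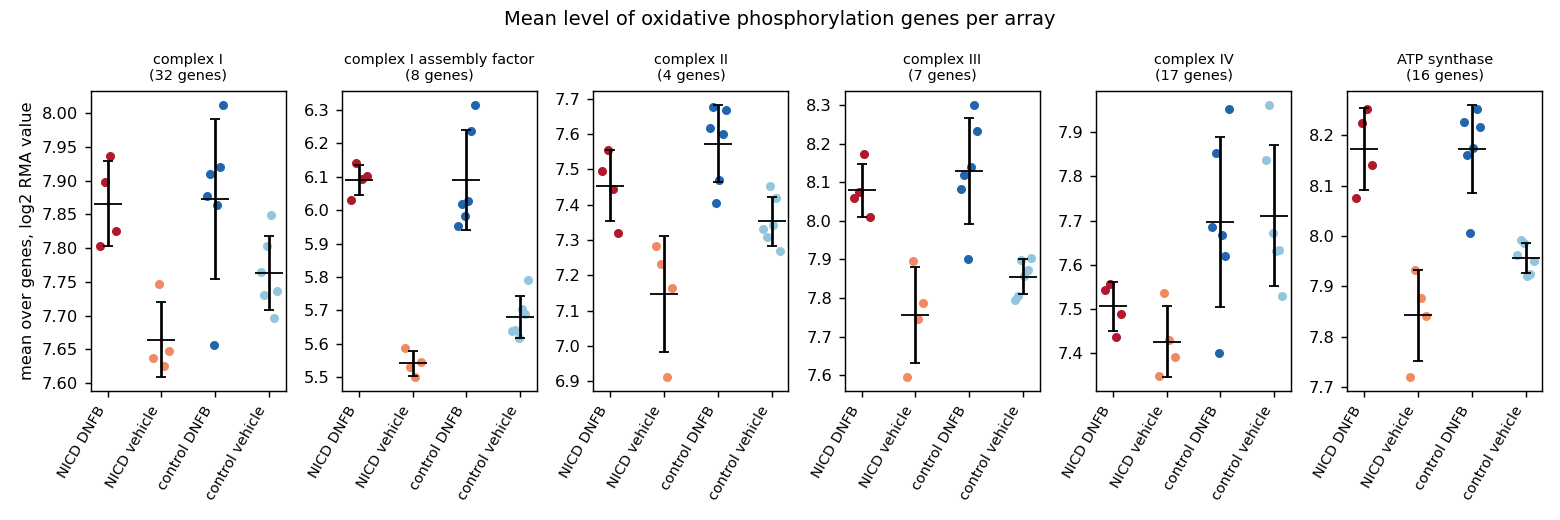
Each point is 1 array's mean log2 RMA value over the genes of a complex, by group, with the group mean and 1 SD; each panel has its own vertical scale. DNFB arrays sit above vehicle arrays of the same genotype for ATP synthase (control DNFB 8.01 and above, control vehicle 7.99 and below) and for the assembly factors, and overlap with them for complex IV.

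Assembly factors of complex I, which build the enzyme and are not part of it, held the largest rise. Ndufaf4 read 7.51, 7.21, 7.27 and 7.34 on the NICD DNFB arrays, against 6.12, 6.00, 6.34 and 5.50 on the NICD vehicle arrays. In control mice it ran from 7.47 (median 7.59) to 7.66 after DNFB, against 6.23 (median 6.38) to 6.61 after vehicle. Every DNFB array thus lay above every vehicle array of its genotype. Ndufaf4 rose by 1.34 ± 0.14 (log2 difference ± SE, adjusted p = 2.58e-07) in NICD mice, or 2.54-fold, and by 1.17 ± 0.11 (adjusted p = 5.18e-08) in control mice, or 2.25-fold.

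Ndufaf8 read 7.20, 7.32, 7.28 and 7.39 on NICD DNFB arrays, against 6.34, 6.41, 6.48 and 6.51 on NICD vehicle arrays. The control DNFB arrays spanned 6.51 to 7.21 with a median of 7.10, against 5.94 to 6.36 with a median of 6.22 on control vehicle arrays. Neither genotype showed overlap, and the rises were 0.86 ± 0.15 (adjusted p = 0.000125) and 0.75 ± 0.12 (adjusted p = 4.29e-05). In human cells NDUFAF8 is the partner of NDUFAF5, a methyltransferase-like assembly factor. Ndufaf5 rose by 0.72 ± 0.16 in NICD mice and by 0.37 in control mice, and Ndufaf1 and Ndufaf6 also rose in both. Ndufaf2 passed the threshold in control mice (0.43) and not in NICD mice, and Ndufaf7 passed in neither.

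Against these, Ndufaf3 was lower. It read 4.71, 4.95, 4.91 and 4.83 on NICD DNFB arrays, against 5.17, 5.27, 5.59 and 5.40 on NICD vehicle arrays. Control DNFB arrays ran from 4.79 (median 5.43) to 5.73, and control vehicle arrays from 5.78 (median 5.84) to 6.16. The groups were separate in both genotypes, by a narrow margin in control mice. Ndufaf3 fell by 0.51 ± 0.16 on the log2 scale (adjusted p = 0.0133) in NICD mice, where quantile normalization ended the call (adjusted p = 0.0699), and by 0.55 ± 0.13 (adjusted p = 0.00129) in control mice. In human cells NDUFAF3 and NDUFAF4 bind each other during early assembly, so the 2 partners moved in opposite directions here.

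Among complex I subunits, which oxidise NADH, 14 of 32 were higher and 2 lower in NICD mice, and 12 were higher and 4 lower in control mice. Among probe sets at or above the genes' median level, 37.2% and 37.6% were higher, which the control count did not exceed. The median log2 difference of the complex was 0.23 in NICD mice and 0.11 in control mice. Ndufs4, an accessory subunit whose loss causes Leigh syndrome in humans, read 8.22, 8.33, 8.50 and 8.29 on NICD DNFB arrays, against 7.72, 7.53, 7.68 and 7.41 on NICD vehicle arrays. Control DNFB arrays reached from 7.89 (median 8.21) to 8.63, overlapping control vehicle arrays at 7.50 (median 7.78) to 8.01. The rise was 0.75 ± 0.14 (adjusted p = 0.00023) in NICD mice and 0.48 ± 0.11 (adjusted p = 0.00167) in control mice.

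Ndufa12, another accessory subunit, read 8.72, 8.70, 8.88 and 8.68 on NICD DNFB arrays, against 7.96, 8.13, 8.13 and 8.11 on NICD vehicle arrays. On control DNFB arrays it spanned 7.77 (median 7.92) to 8.18, against 7.26 (median 7.39) to 7.58 on control vehicle arrays. No array of the DNFB groups reached down into its vehicle group, and the rises were 0.66 ± 0.10 (adjusted p = 3.43e-05) and 0.56 ± 0.08 (adjusted p = 1.51e-05). A second Ndufa12 probe set also gave positive differences, 1.14 and 1.08. Ndufv2, an iron-sulfur subunit of the NADH-oxidising module, rose by 0.50 in both genotypes. Ndufab1, the mitochondrial acyl carrier protein, rose by 0.65 ± 0.14 in NICD mice and 0.38 in control mice, and the membrane-arm subunit Ndufb6 by 0.75 ± 0.13 and 0.44. Ndufa11 rose by 0.51 and 0.50, but its second, dimmer probe set gave -0.02 and 0.12, and the mean of both probe sets did not pass in control mice (0.31, adjusted p = 0.117).

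Ndufa6 and Ndufa7 were the complex I subunits that were lower in both genotypes. Ndufa6, a small accessory subunit that binds the acyl carrier protein, read 7.66, 7.74, 8.05 and 7.81 on NICD DNFB arrays, against 8.14, 8.38, 8.29 and 8.40 on NICD vehicle arrays. Control DNFB arrays lay at 7.87 (median 7.94) to 8.20, and control vehicle arrays at 8.37 (median 8.47) to 8.61. All DNFB arrays were below all vehicle arrays of their genotype. Ndufa6 fell by 0.49 ± 0.11 (adjusted p = 0.00108) and by 0.51 ± 0.09 (adjusted p = 5.75e-05). Ndufa7 fell by 0.47 ± 0.12 (adjusted p = 0.0044) in NICD mice and by 0.29 ± 0.10 (adjusted p = 0.0218) in control mice, where leaving out control DNFB replicate 3 or 5, control vehicle replicate 6 or the 5 arrays with muscle transcripts ended the call. Ndufv3, an accessory subunit, fell by 0.34 ± 0.09 (adjusted p = 0.00238) in control mice and had a difference of -0.25 in NICD mice (adjusted p = 0.0685). The core iron-sulfur subunit Ndufs8 fell by 0.23 ± 0.09 in control mice at an adjusted p of 0.0469, a call that 20 of the alternative settings ended.

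**Figure D2:**
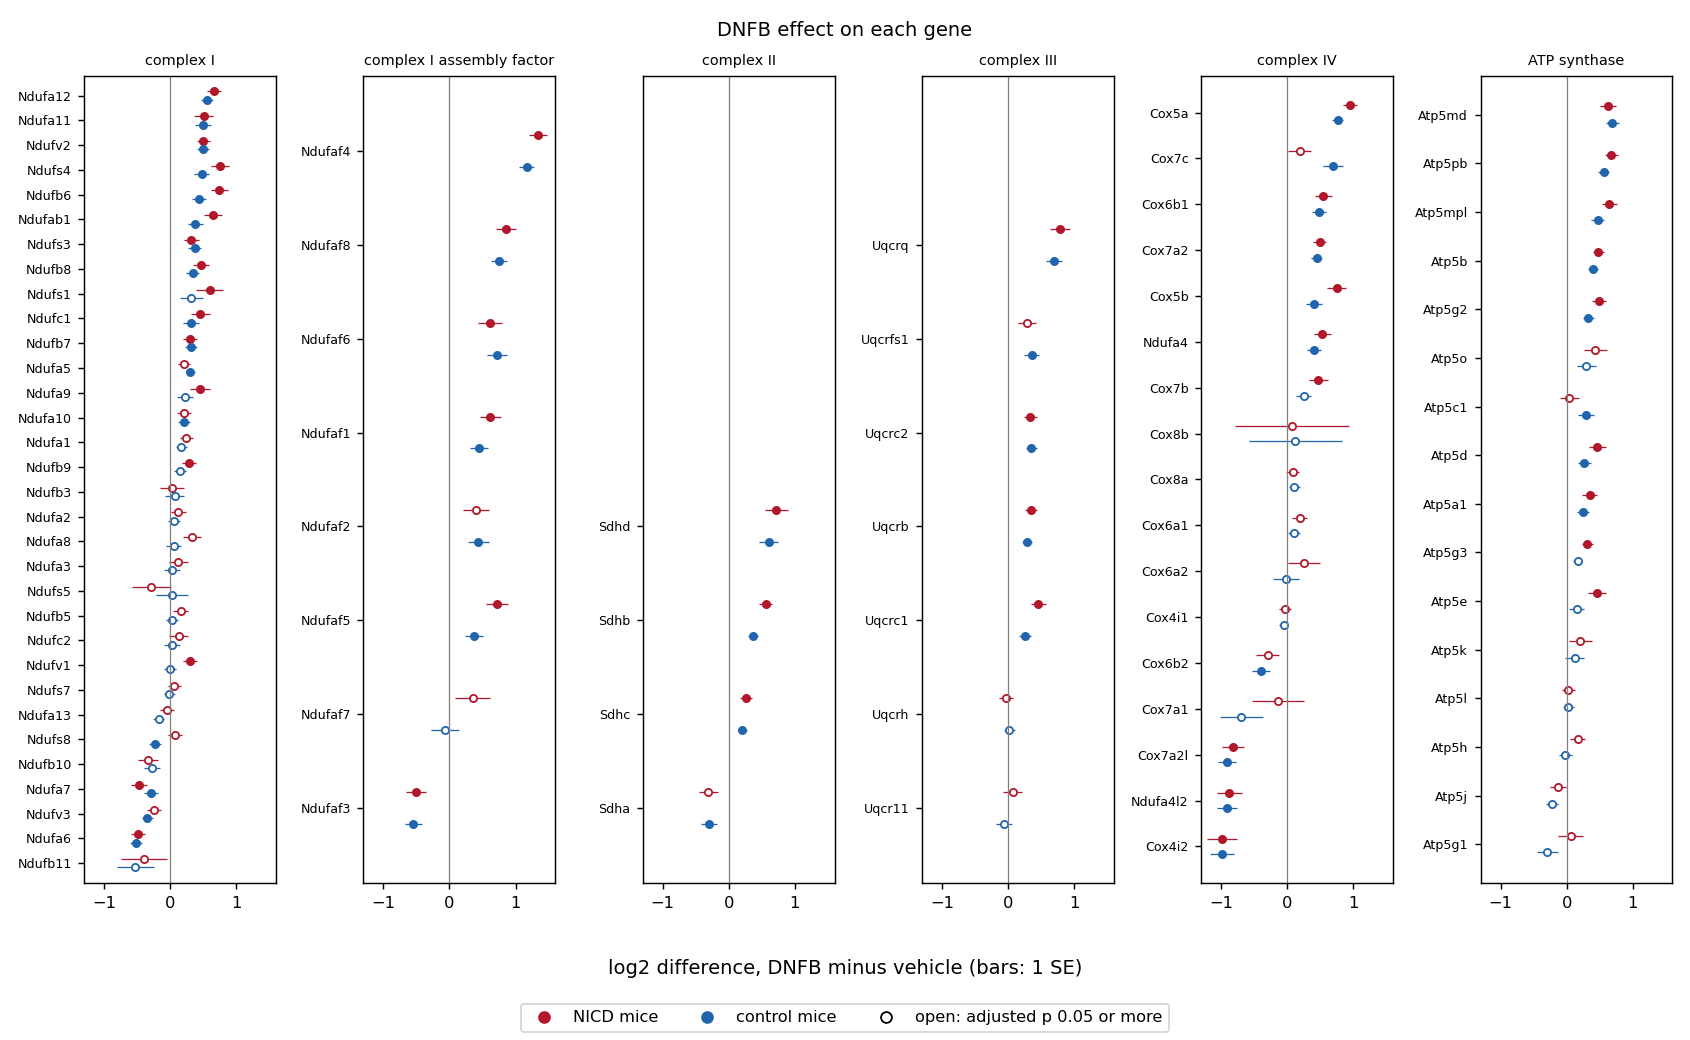
For each gene, the log2 difference of DNFB minus vehicle in NICD mice (red) and control mice (blue) with bars of 1 SE, filled where the adjusted p is under 0.05, ordered within each complex. Most differences lie right of 0, with Ndufaf4 farthest (1.34 and 1.17), while Cox4i2, Ndufa4l2 and Cox7a2l lie near -1 in both genotypes.

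Complex II, the succinate dehydrogenase of the tricarboxylic acid cycle, split between its subunits. Sdhb, the iron-sulfur subunit, read 7.98, 8.20, 8.07 and 8.07 on NICD DNFB arrays, against 7.50, 7.73, 7.38 and 7.48 on NICD vehicle arrays. Its control DNFB arrays ran from 7.72 (median 7.80) to 7.94, above control vehicle arrays at 7.39 (median 7.44) to 7.53. With no overlap in either genotype, Sdhb rose by 0.56 ± 0.10 (adjusted p = 9.94e-05) and by 0.37 ± 0.08 (adjusted p = 0.000567).

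Sdhd, a membrane anchor, read 7.48, 7.48, 7.29 and 7.0 on NICD DNFB arrays, against 6.93, 6.58, 6.33 and 6.52 on NICD vehicle arrays. On control DNFB arrays it ran from 7.27 (median 7.71) to 8.15, against 6.84 (median 7.19) to 7.33 on control vehicle arrays. The control groups overlapped slightly and the NICD groups did not. Sdhd rose by 0.72 ± 0.17 (adjusted p = 0.00234) and by 0.60 ± 0.14 (adjusted p = 0.00146). The other anchor, Sdhc, rose by 0.26 ± 0.09 (adjusted p = 0.0337) and 0.21 ± 0.08 (adjusted p = 0.0281), calls that 10 and 11 alternative settings ended.

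Sdha, the catalytic flavoprotein, went the other way. It read 8.59, 8.78, 8.61 and 8.46 on NICD DNFB arrays, against 9.20, 9.04, 8.46 and 8.99 on NICD vehicle arrays, and 8.40 (median 8.59) to 8.80 on control DNFB arrays, against 8.70 (median 8.87) to 9.14 on control vehicle arrays. Both pairs of groups overlapped. Its difference was -0.31 ± 0.14 in NICD mice (adjusted p = 0.095) and -0.30 ± 0.12 in control mice, where it passed at an adjusted p of 0.0394 and 9 alternative settings ended the call.

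In complex III, 4 of 7 genes were higher in NICD mice and 5 in control mice, and 0 were lower by limma or at an unadjusted p under 0.05. Uqcrq, a small subunit near the ubiquinone-binding region, read 7.54, 7.69, 7.75 and 7.59 on NICD DNFB arrays, against 6.58, 7.03, 6.83 and 6.96 on NICD vehicle arrays. The control DNFB arrays lay between 6.62 (median 7.0) and 7.32, and the control vehicle arrays between 6.04 (median 6.33) and 6.63. Only the control groups touched, at the 2 arrays of 6.62 and 6.63. Uqcrq rose by 0.79 ± 0.15 (adjusted p = 0.000276) and by 0.69 ± 0.12 (adjusted p = 9.02e-05). The core proteins Uqcrc1 and Uqcrc2 rose by 0.46 ± 0.11 and 0.34 ± 0.10 in NICD mice and by 0.26 and 0.35 in control mice, and Uqcrb rose by 0.34 and 0.29. Uqcrfs1, the Rieske iron-sulfur protein, rose by 0.36 ± 0.11 (adjusted p = 0.0136) in control mice, a call lost without the 5 arrays with muscle transcripts (adjusted p = 0.206), and had a difference of 0.28 in NICD mice (adjusted p = 0.121). The hinge protein Uqcrh had differences of -0.03 and 0.02.

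Complex IV, cytochrome c oxidase, held both the second-largest rise and the largest falls. Cox5a, a nuclear subunit on the matrix side, read 9.57, 9.70, 9.66 and 9.65 on NICD DNFB arrays, against 8.45, 8.74, 8.81 and 8.78 on NICD vehicle arrays. Its control DNFB arrays ran from 9.55 (median 9.90) to 9.96, against 8.90 (median 9.12) to 9.20 on control vehicle arrays. Every DNFB array was above every vehicle array of its genotype. Cox5a rose by 0.95 ± 0.11 (adjusted p = 1.05e-06), or 1.93-fold, and by 0.76 ± 0.09 (adjusted p = 7e-07), or 1.69-fold. Cox5b, Cox6b1, Cox7a2 and Ndufa4 also rose in both genotypes, by 0.49 to 0.75 in NICD mice and 0.40 to 0.47 in control mice. Cox7c rose by 0.69 ± 0.14 (adjusted p = 0.000505) in control mice and had a difference of 0.19 ± 0.18 in NICD mice (adjusted p = 0.446).

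Several complex IV subunits exist as isoforms of which tissues use different versions. Cox4i1, the general isoform of subunit IV, read 10.92, 10.97, 10.95 and 10.97 on NICD DNFB arrays, against 10.86, 11.08, 10.99 and 11.02 on NICD vehicle arrays. It ran from 10.96 (median 11.15) to 11.31 on control DNFB arrays, against 11.16 (median 11.19) to 11.30 on control vehicle arrays. These groups overlapped, with differences of -0.03 ± 0.09 (adjusted p = 0.803) and -0.06 ± 0.07 (adjusted p = 0.561).

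Cox4i2, the alternative isoform known from lung and from low oxygen, read 5.82, 6.03, 5.18 and 6.02 on NICD DNFB arrays, against 6.22, 7.07, 6.66 and 7.04 on NICD vehicle arrays. In control mice it spanned 5.34 (median 5.89) to 6.04 after DNFB, and 6.53 (median 6.72) to 7.35 after vehicle. Both genotypes were separated. Cox4i2 fell by 0.98 ± 0.23 (adjusted p = 0.00156) in NICD mice and by 0.99 ± 0.18 (adjusted p = 0.000159) in control mice, 1.98-fold lower in each.

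Ndufa4, the general form of a subunit of complex IV once assigned to complex I, read 10.03, 10.02, 10.09 and 10.04 on NICD DNFB arrays, against 9.47, 9.51, 9.58 and 9.52 on NICD vehicle arrays. Ndufa4l2, its hypoxia-inducible relative, read 4.48, 4.31, 4.21 and 4.30 on NICD DNFB arrays, against 5.20, 5.19, 5.38 and 5.05 on NICD vehicle arrays. The NICD groups were separate for both genes and in opposite directions. In control mice Ndufa4 ran from 9.75 (median 10.19) to 10.47 after DNFB, against 9.67 (median 9.74) to 9.88 after vehicle, while Ndufa4l2 ran from 4.40 (median 4.85) to 5.53, against 5.52 (median 5.72) to 6.16. The control groups touched at 1 array for Ndufa4l2 and overlapped for Ndufa4. Ndufa4 rose by 0.53 ± 0.13 (adjusted p = 0.00211) and 0.40 ± 0.10 (adjusted p = 0.00287), and Ndufa4l2 fell by 0.88 ± 0.18 (adjusted p = 0.000717) and by 0.92 ± 0.15 (adjusted p = 3.79e-05).

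The third pair showed the same split. Cox7a2, the general isoform of subunit VIIa, rose by 0.49 ± 0.10 (adjusted p = 0.000379) and 0.44 ± 0.08 (adjusted p = 8.89e-05), with no overlap in either genotype. Cox7a2l, a relative known as a factor that joins complexes III and IV into supercomplexes, read 5.89, 6.23, 5.91 and 5.99 on NICD DNFB arrays, against 6.63, 7.10, 6.67 and 6.91 on NICD vehicle arrays. Control DNFB arrays ran from 5.69 (median 6.24) to 6.54, below control vehicle arrays at 6.85 (median 7.04) to 7.41. Cox7a2l fell by 0.82 ± 0.16 (adjusted p = 0.000468) and by 0.91 ± 0.13 (adjusted p = 1.05e-05).

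**Figure D3:**
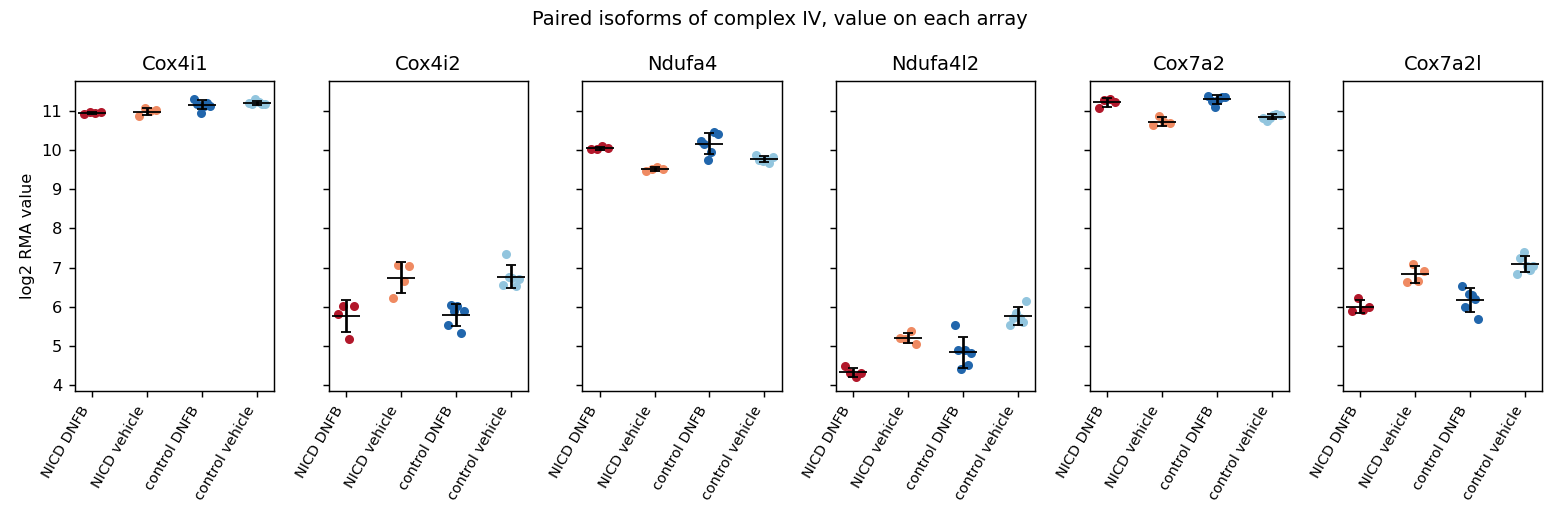
Log2 RMA value of 3 pairs of related complex IV genes on each array, by group, with the group mean and 1 SD. After DNFB Cox4i2, Ndufa4l2 and Cox7a2l sit lower in both genotypes (Cox4i2 5.76 against 6.75 in NICD mice), Ndufa4 and Cox7a2 sit higher, and Cox4i1 overlaps.

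Cox4i2 and Ndufa4l2 are also known as transcripts of mouse pericytes, the mural cells of small vessels. The pericyte and smooth muscle markers moved the same way: the summed linear level of all 11 was 3781 to 4852 on NICD DNFB arrays against 6747 to 8269 on NICD vehicle arrays, and 4389 to 7285 on control DNFB arrays against 7827 to 9524 on control vehicle arrays. Higd1b, a pericyte marker, fell by 2.51 ± 0.21 in NICD mice and by 2.89 ± 0.18 in control mice. Acta2, Cspg4 and Des did not pass in NICD mice (-0.05, -0.02 and -0.35). The part of these cells in the lower Cox4i2 and Ndufa4l2 was not tested.

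Cox8b, Cox7a1 and Cox6a2, the isoforms typical of striated muscle, passed in neither genotype. Cox8b read 3.94, 3.55, 2.90 and 2.63 on NICD DNFB arrays, against 3.18, 3.92, 2.79 and 2.85 on NICD vehicle arrays. In control mice it ran from 2.30 (median 3.14) to 5.72 after DNFB, against 1.81 (median 2.91) to 6.39 after vehicle. The 4 control arrays at 5.38 or more were the 4 control arrays with high skeletal muscle markers. The difference for Cox8b was 0.07 ± 0.86 in NICD mice and 0.12 ± 0.70 in control mice. Cox7a1 differed by -0.70 ± 0.32 (adjusted p = 0.083) in control mice, and by -0.71 ± 0.20 (adjusted p = 0.0112) once the 5 arrays with muscle transcripts were left out. The testis-associated isoform Cox6b2 fell by 0.40 ± 0.14 (adjusted p = 0.0213) in control mice, and by 0.35 with no call (adjusted p = 0.131) without those arrays. Summed linear skeletal muscle markers were 150 to 621 on NICD DNFB arrays, 147 to 326 on NICD vehicle arrays, 187 to 1269 on control DNFB arrays and 186 to 2121 on control vehicle arrays, and 0 of the 10 that passed the filter were called in either genotype. Without these 5 arrays, 37 genes were higher and 6 lower in NICD mice, and 29 higher and 10 lower in control mice, where that fit called 17.8% of all probe sets higher and 17% lower in NICD mice, and 19.9% and 21.2% in control mice.

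**Figure D4:**
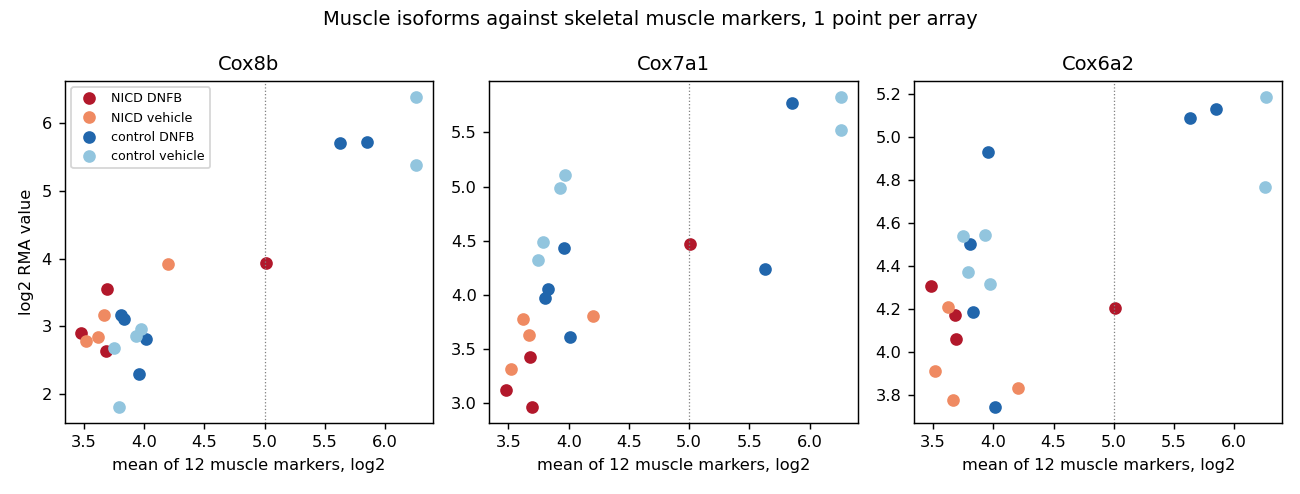
Log2 RMA values of the muscle isoforms Cox8b, Cox7a1 and Cox6a2 against the mean log2 value of 12 skeletal muscle markers, 1 point per array coloured by group, with a dotted line at 5. The 4 control arrays right of the line hold the highest Cox8b values (5.38 to 6.39), and NICD DNFB 1 lies just past the line at 5.01 with Cox8b at 3.94.

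ATP synthase had 9 of 16 genes higher and 0 lower in NICD mice, and 8 higher and 0 lower in control mice. At an unadjusted p under 0.05, 0 were lower in NICD mice and 1 in control mice. Atp5pb, subunit b of the peripheral stalk, read 9.30, 9.43, 9.37 and 9.19 on NICD DNFB arrays, against 8.67, 8.70, 8.52 and 8.70 on NICD vehicle arrays. On control DNFB arrays it lay between 8.90 (median 8.95) and 9.13, above control vehicle arrays between 8.29 (median 8.41) and 8.54. The groups were apart in both genotypes, and Atp5pb rose by 0.67 ± 0.10 (adjusted p = 1.09e-05) and 0.56 ± 0.08 (adjusted p = 5.64e-06).

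Atp5md and Atp5mpl are small membrane proteins that associate with the enzyme's dimers. Atp5md read 11.28, 11.74, 11.83 and 11.72 on NICD DNFB arrays, against 10.79, 11.10, 11.17 and 11.04 on NICD vehicle arrays, and 11.50 (median 11.71) to 11.84 on control DNFB arrays, against 10.90 (median 10.99) to 11.12 on control vehicle arrays. It did not overlap in either genotype and rose by 0.62 ± 0.12 (adjusted p = 0.00037) and 0.69 ± 0.10 (adjusted p = 8.07e-06). Atp5mpl rose by 0.65 ± 0.12 and 0.47 ± 0.10. In the catalytic head, Atp5b (subunit beta) rose by 0.48 ± 0.09 and 0.39 ± 0.07 and Atp5a1 (subunit alpha) by 0.35 ± 0.11 and 0.25 ± 0.09. The rotor-ring subunit c has 3 genes with the same mature protein. Among them Atp5g2 rose by 0.49 and 0.33, Atp5g3 rose by 0.31 in NICD mice with a difference of 0.16 in control mice (adjusted p = 0.0554), and Atp5g1, near the array median, had differences of 0.06 and -0.29 that did not pass. Atp5j, a stalk subunit, had differences of -0.13 and -0.22 (adjusted p = 0.419 and 0.0659).

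Groups that did not overlap were counted as a description of the same contrast. In NICD mice 41 of the 84 genes had all DNFB arrays above all vehicle arrays and 7 had them below, where 19.9% and 17.4% of all probe sets did. In control mice 19 lay wholly above and 5 wholly below, where 13.6% and 13.2% of all probe sets did.

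The difference of the DNFB effects between NICD and control mice passed for 0 of the 84 genes in either direction by limma (0.00672% of probe sets passed in each), and 2 had an unadjusted p under 0.05. The median of that difference was 0.10, beside 0.02 over all probe sets, and the genes are not replicates of one another. Cox7c had the lowest p: -0.50 ± 0.23 (adjusted p = 0.443), from differences of 0.19 in NICD mice and 0.69 in control mice. Ndufv1, the NADH-binding subunit, followed with 0.30 ± 0.14 (adjusted p = 0.449), then Ndufs8 with 0.30 ± 0.15 (adjusted p = 0.471) and Ndufb6 with 0.31 ± 0.16 (adjusted p = 0.521). A missed threshold does not show that the genotypes respond alike.

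The second question was how NICD ears differed from control ears at the same treatment. Here the genotype coincided with differences in sex-linked transcripts and in the arrays' value range, and these cannot be told apart from it. Xist, expressed from the inactive X of females, averaged 8.60 in NICD DNFB and 9.0 in NICD vehicle arrays, against 2.86 in control DNFB and 2.58 in control vehicle arrays. The Y-linked Eif2s3y averaged 2.44 and 2.39, against 6.79 and 6.75. Array medians were 3.52 to 3.62 in NICD mice and 3.87 to 3.98 in control mice, and the lowest value per array was 1.18 to 1.30 against 0.412 to 0.590. As deposited, 11 genes were higher and 15 lower in NICD than in control DNFB ears (5.45% and 35.1% of probe sets), with medians of -0.05 for the genes and -0.27 for all probe sets. Centring each array on its median gave 42 higher and 4 lower (20.7% and 8.12%), and quantile normalization 20 and 6 (11.9% and 11.9%). In vehicle ears the counts were 4 higher and 23 lower (2.88% and 33.0%) as deposited, 26 and 5 centred (11.9% and 6.54%) and 14 and 6 after quantile normalization (6.85% and 9.35%). Median centring moves every probe set of an array alike, so these counts moved with those of all probe sets. The genes' median was 0.32 centred and 0.08 after quantile normalization in DNFB ears, and -0.16 as deposited, 0.17 centred and -0.0118 after quantile normalization in vehicle ears. As deposited, where 35.1% of all probe sets were lower, some markers of other cells were also lower in NICD than in control DNFB ears. They were 3 of 4 platelet, 3 of 6 fibroblast, 3 of 4 chondrocyte and 2 of 2 adipocyte markers, with medians of -0.68, -0.32, -0.43 and -0.40 after centring. In vehicle ears, where 33.0% of probe sets were lower, 1, 1, 2 and 2 of them were lower as deposited, with centred medians of -0.40, 0.05, -0.52 and -0.19. The 2 adipocyte markers, Plin1 and Retn, lay near the array medians. They averaged 3.40 and 3.26 on NICD DNFB arrays and 4.09 and 4.12 on control DNFB arrays. The part of these other cells in the genotype differences was not tested. What follows is restricted to genes that passed with one sign in all 3 scalings.

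In DNFB ears 11 genes were higher that way (5.43% of probe sets were) and 4 lower (7.55%). In vehicle ears 4 were higher (2.86%) and 4 lower (5.95%). Ndufb10, an accessory subunit of the complex I membrane arm, stood out by size: it read 8.53, 8.81, 8.60 and 8.76 on NICD DNFB arrays, against 6.54 (median 7.17) to 7.37 on control DNFB arrays. After vehicle it read 8.88, 9.05, 8.97 and 9.14 on NICD arrays, against 7.09 (median 7.32) to 7.60 on control arrays. The genotypes were more than 1 log2 unit apart with no overlap at either treatment. Ndufb10 was higher by 1.59 ± 0.14 (adjusted p = 2.86e-07) in DNFB ears and by 1.65 ± 0.14 (adjusted p = 1.84e-07) in vehicle ears, and by 1.7 to 1.96 and 1.82 to 1.97 under the other scalings. DNFB against vehicle did not pass for Ndufb10 in either genotype (-0.34, adjusted p = 0.0856, and -0.28, adjusted p = 0.0676).

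On the probe sets used, Ndufa12, Atp5mpl and Uqcrq were likewise higher in NICD ears at both treatments. As deposited, Atp5mpl differed by 0.77 ± 0.11 in DNFB ears and 0.59 ± 0.11 in vehicle ears, and Uqcrq by 0.62 ± 0.14 and 0.52 ± 0.14. Ndufa12 differed by 0.78 ± 0.09 and 0.68 ± 0.09, but the mean of its 2 probe sets differed by only 0.13 and 0.05, with no call. The second Ndufa12 probe set was thus lower in NICD ears as deposited, and its difference under the other scalings is not given here. Cox5b, higher by 0.63 ± 0.13 in DNFB ears, turned to -0.40 when its 2 probe sets were averaged, so the probe sets disagreed on its direction. Atp5g1, Atp5pb, Ndufaf5, Ndufaf7, Ndufaf8 and Sdhb completed the list in DNFB ears, by 0.26 to 0.64, and the Ndufaf7 call was lost in 16 alternative settings. The next counts cover all 84 genes as deposited, without the restriction to 3 scalings. NICD arrays lay wholly above control arrays for 8 genes in DNFB ears and 3 in vehicle ears (3.28% and 1.83% of probe sets). They lay wholly below for 11 and 20 (21.7% and 22.2%).

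On the lower side, Ndufs3, a core subunit of complex I, read 4.50, 4.50, 4.65 and 4.49 on NICD DNFB arrays, against 5.35 (median 5.64) to 5.78 on control DNFB arrays. After vehicle it read 4.40, 4.12, 3.97 and 4.37 on NICD arrays, against 5.16 (median 5.20) to 5.33 on control arrays. No NICD array reached a control array. Ndufs3 was lower by 1.05 ± 0.11 on the log2 scale (-1.05, adjusted p = 1.64e-06) in DNFB ears, and its difference in vehicle ears was -1.0 ± 0.11 (adjusted p = 3.24e-06). Atp5o, which encodes the OSCP subunit of the peripheral stalk, differed by -0.85 ± 0.16 and -0.98 ± 0.16, and Ndufb6 by -0.73 ± 0.11 and -1.04 ± 0.11. Atp5o was dim, however. Control vehicle arrays other than replicate 2 (4.72) read 3.74 to 3.98 for it, near the control array medians of 3.87 to 3.98. Cox7c was lower in DNFB ears (-0.87 ± 0.16) and Atp5d, subunit delta, in vehicle ears (-0.74 ± 0.11).

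**Figure D5:**
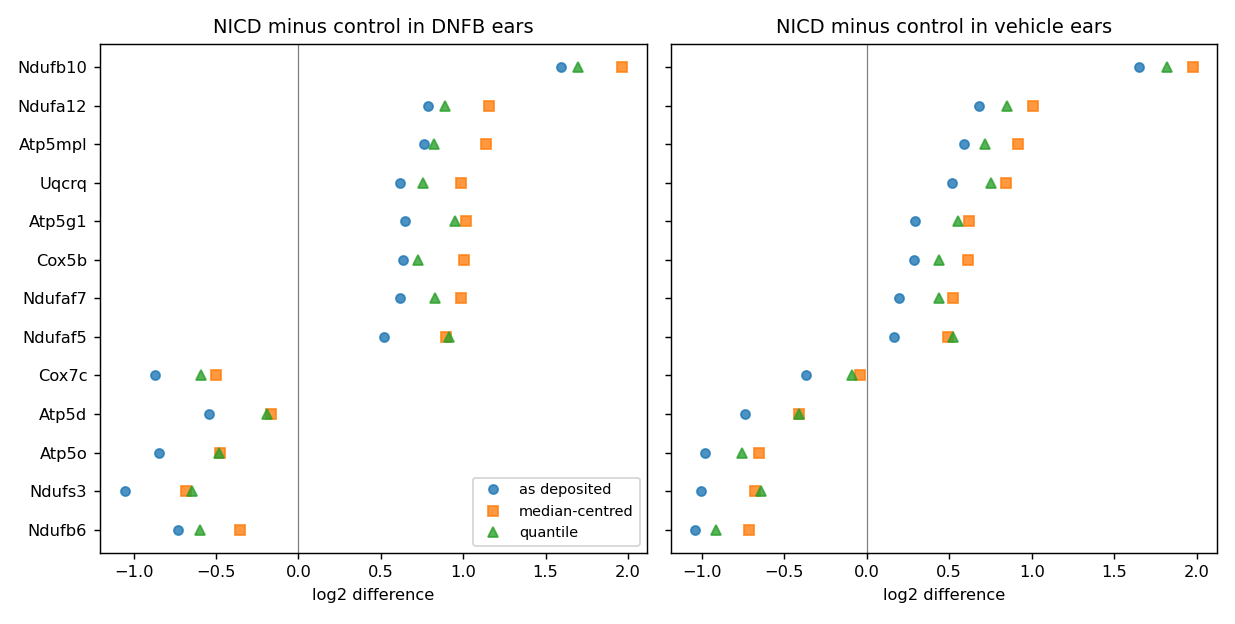
Log2 difference of NICD minus control in DNFB ears (left) and vehicle ears (right) for members named by the rule for genotype comparisons, as deposited, median-centred and quantile-normalized. Ndufb10 lies at 1.59 and 1.65 as deposited and Ndufs3 at -1.05 and -1.0, and both other scalings lie right of it for every gene shown.

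Other genes of mitochondrial respiration were followed through lists. Beside the list counts, 20% of all probe sets were higher and 18.1% lower after DNFB in NICD mice. In control mice these shares were 23.7% and 23.6%. At or above the respiratory genes' median level, 37.2% were higher and 22.0% lower in NICD mice. In control mice 37.6% and 28.4% of those bright probe sets were. The tricarboxylic acid cycle list below is bright too, with array means of 7.22 to 8.06. Of 38 respiratory chain assembly factors outside the rule, 14 were higher and 2 lower in NICD mice after DNFB, and 15 higher and 3 lower in control mice. Cox10, which takes part in making heme A for complex IV, rose by 1.13 ± 0.16 (adjusted p = 1.26e-05) and 1.06 ± 0.13 (adjusted p = 1.26e-06), and Cox18, which inserts a complex IV subunit, by 1.23 ± 0.16 and 1.06 ± 0.13. Of 14 electron carrier and ubiquinone synthesis genes, 5 were higher and 1 lower in NICD mice, and 5 and 3 in control mice. Cycs, cytochrome c, rose by 1.13 ± 0.11 (adjusted p = 1.33e-07) and 1.05 ± 0.09 (adjusted p = 1.17e-08).

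The tricarboxylic acid cycle and pyruvate dehydrogenase list had 9 of 16 genes higher and 0 lower in NICD mice, and 7 higher and 0 lower in control mice (0 lower in either at an unadjusted p under 0.05), led by Idh3a (1.36 ± 0.15 and 0.95 ± 0.12), the catalytic subunit of mitochondrial isocitrate dehydrogenase. Fatty acid oxidation ran the other way, with 1 of 12 higher and 4 lower in NICD mice, and 0 higher and 6 lower in control mice. Cpt1a, which admits long-chain fatty acids to mitochondria, fell by 0.75 ± 0.12 (adjusted p = 6.43e-05) and by 1.28 ± 0.10 (adjusted p = 3.23e-09), and Acaa2, a thiolase, by 1.21 ± 0.17 and 1.40 ± 0.14. Slc25a20, the carnitine carrier, was the gene that rose in NICD mice (0.50 ± 0.12).

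Of 13 regulators of mitochondrial biogenesis, 4 were higher and 3 lower in NICD mice, and 5 and 3 in control mice. Over all probe sets 20% and 23.7% were higher and 18.1% and 23.6% lower, so the lower counts were near that share. Tfam, which packages and transcribes mitochondrial DNA, rose by 0.73 ± 0.17 (adjusted p = 0.00185) and 0.78 ± 0.14 (adjusted p = 0.000101), and the coactivator Pprc1 by 1.05 ± 0.12 and 0.77 ± 0.10. Its relative Ppargc1b fell by 0.88 ± 0.13 and by 0.42 ± 0.11, and Ppargc1a did not pass the filter. Of 9 carriers, channels, uncoupling genes and the ATP synthase inhibitor, 5 were higher and 0 lower in NICD mice (1 lower at an unadjusted p under 0.05), and 5 and 1 in control mice. The lower gene was the inhibitor Atpif1, which fell by 0.41 ± 0.12 (adjusted p = 0.00681) in control mice, with a difference of -0.33 ± 0.14 (adjusted p = 0.0809) in NICD mice. Slc25a5, an ADP/ATP carrier, rose by 1.04 ± 0.12 (adjusted p = 1.19e-06) and 0.87 ± 0.10 (adjusted p = 4.38e-07).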

How the data were processed

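Gene expression was measured on 20 Affymetrix arrays; per the labels, cDNA was made from 1 ng of RNA by WT Pico amplification. The authors deposited log2 values by probe set; RMA and Affymetrix Expression Console are named per the submitters' processing notes, and versions and options are not given in the sources used here. Of 41345 probe sets, 23521 had 1 symbol, 1814 several and 16010 none, and only the first were used. This left out 10 probe sets of these families, for Cox6c, Uqcr10, Ndufs6 and others. Probe sets above the array median on at least 4 arrays were kept (14886, of 14178 genes), and the 89 members had 98. The number of arrays limits precision. No array pair held identical values.

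Group means of the 20 arrays were estimated jointly in limma 3.58.1 (R 4.3.3), with Benjamini-Hochberg adjustment over the 14886 and a threshold of adjusted p 0.05. All differences are log2 differences with the SE of that fit. The procedure was tested on simulated data. Promoters came from RefSeq (GRCm38.p6), searched with Python 3.11.15, and figures were drawn with matplotlib 3.10.9. Alternatives were the filter (none, 60th percentile), scaling, variances, array weights, the samples fitted, a replicate block, probe set averaging, leaving out arrays and, chosen after seeing the data, leaving out the 5 arrays with muscle transcripts.

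The members and lists were chosen with earlier results of these data known. Named were, per DNFB comparison and complex, up to 4 rises and 4 falls, tissue isoforms, complex II, up to 8 genes each way per genotype comparison with 1 sign in 3 scalings, the 4 lowest p for the difference of effects and up to 4 genes per pathway list. Named outside that rule, after their values were seen, were some called and uncalled members given to complete a complex. So were Slc25a20, Ppargc1a, Atpif1, Ptprc, Xist, Eif2s3y, Higd1b, Acta2, Cspg4 and Des. The mitochondrially encoded subunits were on 0 probe sets under the symbols searched.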

Additional observations from a re-analysis of the deposited data

Results flagged for a closer look

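Of 248 groups of arrays examined for 55 genes and the complex means, 10 held an array far from the others of its group; chance alone gives about 1 in 20. Control DNFB replicate 3 was lowest for the mean of ATP synthase (8.01) and for Cox8a (9.89). Control DNFB replicate 1 was lowest for Cox5a (9.55), and control DNFB replicate 4 highest for Ndufa6 (8.20). Control vehicle replicate 2 was highest for Cox4i2 (7.35) and Atp5o (4.72). In NICD mice, DNFB replicate 1 was lowest for Cox5b (8.66), DNFB replicate 3 highest for Ndufs3 (4.65), vehicle replicate 1 lowest for Ndufa12 (7.96) and vehicle replicate 2 highest for Ndufs8 (7.47).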

How the results depend on the processing

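Of 181 named gene results, 150 kept direction and side of the threshold under all 11 alternatives and 20 fits without 1 array. Leaving out 1 array gave 35 to 43 higher and 6 to 7 lower genes after DNFB in NICD mice (median 0.27 to 0.32), 34 to 41 and 7 to 12 in control mice (0.19 to 0.27), 9 to 14 and 12 to 18 for NICD against control in DNFB ears (-0.10 to -0.03), 4 to 5 and 17 to 24 in vehicle ears (-0.17 to -0.13), and 0 and 0 for the difference of effects (0.04 to 0.12). Median centring gave 42 higher, 4 lower and a median of 0.32 in DNFB ears, and 26, 5 and 0.17 in vehicle ears. Quantile normalization gave 20 and 6 in DNFB ears, and 14, 6 and -0.0118 in vehicle ears. Without the 5 arrays with muscle transcripts 15 were lower in vehicle ears. The cause of these shifts was not tested.

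Pairing by replicate number was not established. Deviations of same-numbered DNFB and vehicle arrays correlated at 0.05 to 0.23 (median 0.093) in NICD mice and 0.04 to 0.27 (median 0.097) in control mice, positive in all 4 and all 6 pairs, against medians of -0.05 and -0.03 for different numbers. Not every pair exceeded 0.1, and 6 of 8 NICD and 7 of 12 control arrays correlated best with their own number, a hint from the data and not the design. With this pairing as a fixed block, 37 genes were higher and 6 lower in NICD mice after DNFB, and 37 and 9 in control mice. The genotype comparisons used another fixed block, the replicate number alone, which joins NICD and control arrays of the same number. That block gave 12 higher and 16 lower in DNFB ears, and 4 and 17 in vehicle ears.

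Differences near 0 changed sign: in NICD mice Cox4i1 with centring (0.0102), Cox8a with quantiles (-0.0135), Cox8b without the muscle arrays (-0.16), and, leaving out 1 array, Cox7a1 (-0.46 to 0.0400), Atp5g1 (-0.0680 to 0.127) and Cox8b (-0.16 to 0.32). In control mice they were Cox6a2 with quantiles (0.0042) or array weights (0.0730) and, leaving out 1 array, Cox6a2 (-0.13 to 0.15) and Cox8b (-0.26 to 0.66). Cox5b in DNFB ears, NICD against control, turned to -0.40 when probe sets were averaged.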

Other observations

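Lists next to respiration were followed after DNFB too. Beside their counts, 20% of all probe sets were higher and 18.1% lower in NICD mice, and 23.7% and 23.6% in control mice. At or above the respiratory genes' median level, 37.2% were higher and 22.0% lower in NICD mice. In control mice 37.6% and 28.4% of those bright probe sets were. The cytosolic ribosome list below was bright, with array means of 7.52 to 8.17. Its higher count did not exceed the bright share in control mice and was near it in NICD mice. Of 69 mitochondrial ribosome genes, whose ribosome makes the subunits encoded by mitochondrial DNA, 52 were higher and 0 lower in NICD mice (median 0.64), and 48 and 0 in control mice (median 0.61; 0 and 1 lower at an unadjusted p under 0.05). Mrps18b rose by 1.64 ± 0.12 and 1.51 ± 0.10, and Mrpl17 by 1.57 ± 0.12 and 1.21 ± 0.10. Of 63 cytosolic ribosome genes, 27 were higher and 0 lower in NICD mice (median 0.22) and 20 and 0 in control mice (median 0.21; likewise 0 and 1).

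In the glycolysis and hypoxia response list, 10 of 21 genes were higher and 4 lower in NICD mice, and 11 and 4 in control mice. The glycolytic enzyme Pgk1 rose by 1.97 ± 0.14 and 1.77 ± 0.12, and Pkm, pyruvate kinase, rose by 1.34 ± 0.11 and 0.96 ± 0.09. Hk2, a hexokinase, rose by 1.76 ± 0.21 in control mice, with a difference of 0.49 ± 0.25 in NICD mice (adjusted p = 0.139), and the hypoxia-inducible growth factor Vegfa rose by 0.90 ± 0.23 in NICD mice and 1.10 ± 0.19 in control mice. Bnip3, a hypoxia-inducible mitophagy receptor, fell by 1.68 ± 0.17 in NICD mice and by 0.99 ± 0.14 in control mice, and Egln3, an oxygen sensor, by 1.34 ± 0.24 and 0.94 ± 0.20. Pfkfb3, which makes the activator of phosphofructokinase, had a log2 difference of -0.79 ± 0.19 in NICD mice and -1.0 ± 0.16 in control mice.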
